A study of Xenopus laevis with 27 samples.

Results

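The enzymes of glycolysis were followed at the level of RNA in 3 tissues of the frog Xenopus laevis. Gene models were chosen by name alone: those whose gene name, without its copy suffix, is that of a hexokinase, glucokinase, glucose phosphate isomerase, phosphofructokinase, aldolase, triose phosphate isomerase, glyceraldehyde phosphate dehydrogenase, phosphoglycerate kinase or mutase, enolase, pyruvate kinase or lactate dehydrogenase. This gave 40 of the 42903 gene models. The study amputated hindlimbs of adult frogs and compared a wearable device that delivers progesterone through a silk carrier, the silk device without the hormone, and no device. RNA came from the blastema (new tissue growing over the amputation plane), the brain and the stump, in 9 groups: blastema with progesterone, with silk and without a device, brain with progesterone, with silk and without a device, and stump with progesterone, with silk and without a device. Each group had 3 libraries, 27 in all. The labels give neither strain, sex, age nor time of sampling, and do not say whether libraries of a group came from separate frogs, so every p-value measures the spread between these samples only, which may be technical.

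Glycolysis splits glucose into pyruvate through a fixed chain of cytosolic enzymes, and lactate dehydrogenase recycles the cofactor when pyruvate is turned into lactate. In mammals several steps are served by tissue isoforms: skeletal muscle, which burns glycogen in bursts, uses enolase 3, phosphoglycerate mutase 2, aldolase A, muscle phosphofructokinase, hexokinase 2 and lactate dehydrogenase A, while brain uses enolase 1 and 2, phosphoglycerate mutase 1, aldolase C, platelet-type phosphofructokinase, hexokinase 1 and more of lactate dehydrogenase B. Xenopus laevis is allotetraploid, so many genes have a pair of homeologous copies, marked .L and .S.

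The 40 gene models carry 21 symbols. By the mammalian names, 11 models of 6 symbols were put in a muscle class (hk2, pfkm, aldoa, pgam2, eno3 and ldha), 22 models of 11 symbols in a brain or ubiquitous class (hk1, gpi, pfkp, aldoc, tpi1, gapdh, pgk1, pgam1, eno1, pkm and ldhb) and 7 models of 4 symbols in a class of other tissues (among them gck, eno4 and pklr). Both copies were present for 16 pairs. Besides pgk1.L there were 3 models named pgk1 without a suffix, cited here with their identifiers. None of the 40 models carried the name hk3, pfkl, gapdhs, pgk2, eno2 or ldhc. The share of a muscle isoform below is thus a share of the named isoforms only.

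Levels are FPKM (fragments scaled by gene length and library depth), which can be compared between genes. The libraries held between 178630 and 3493536 reads by estimate, fewest in limb tissue with a device. In stump, device libraries held 306371 to 1705226 reads, fewer than any library without a device (2036722 to 3493536). Libraries 1 and 3 differed by less than 1% of genes in blastema with progesterone, in brain without a device and in stump without a device. Each such pair was averaged and counted as 1 sample, written 1+3 below, which left 24 samples and n = 2 in these 3 groups. The library labelled brain silk 3 was as close to brain no-device libraries and was kept under its label. A single gene model, smad4.1.S, took 22.3% to 39.5% of reads in the blastema silk libraries, 10.3% to 31.3% in 6 other device libraries and at most 4.05% elsewhere, and FPKM of all other genes fall by construction when it is high. Markers set brain apart from limb tissue. The 23 skeletal muscle models summed to 55380 and 84797 FPKM in stump without a device and at most 387 FPKM in brain. The 15 neuronal models summed to 1748 to 2441 FPKM in brain and at most 236 FPKM in limb tissue. Muscle markers did not separate blastema from stump across treatments. They summed to 16606 to 32274 FPKM in blastema without a device. In stump they summed to 5529 to 12391 FPKM with silk and 4447 to 28701 FPKM with progesterone. In bulk tissue, fewer cells of a type and less RNA per cell cannot be told apart.

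**Figure D1:**
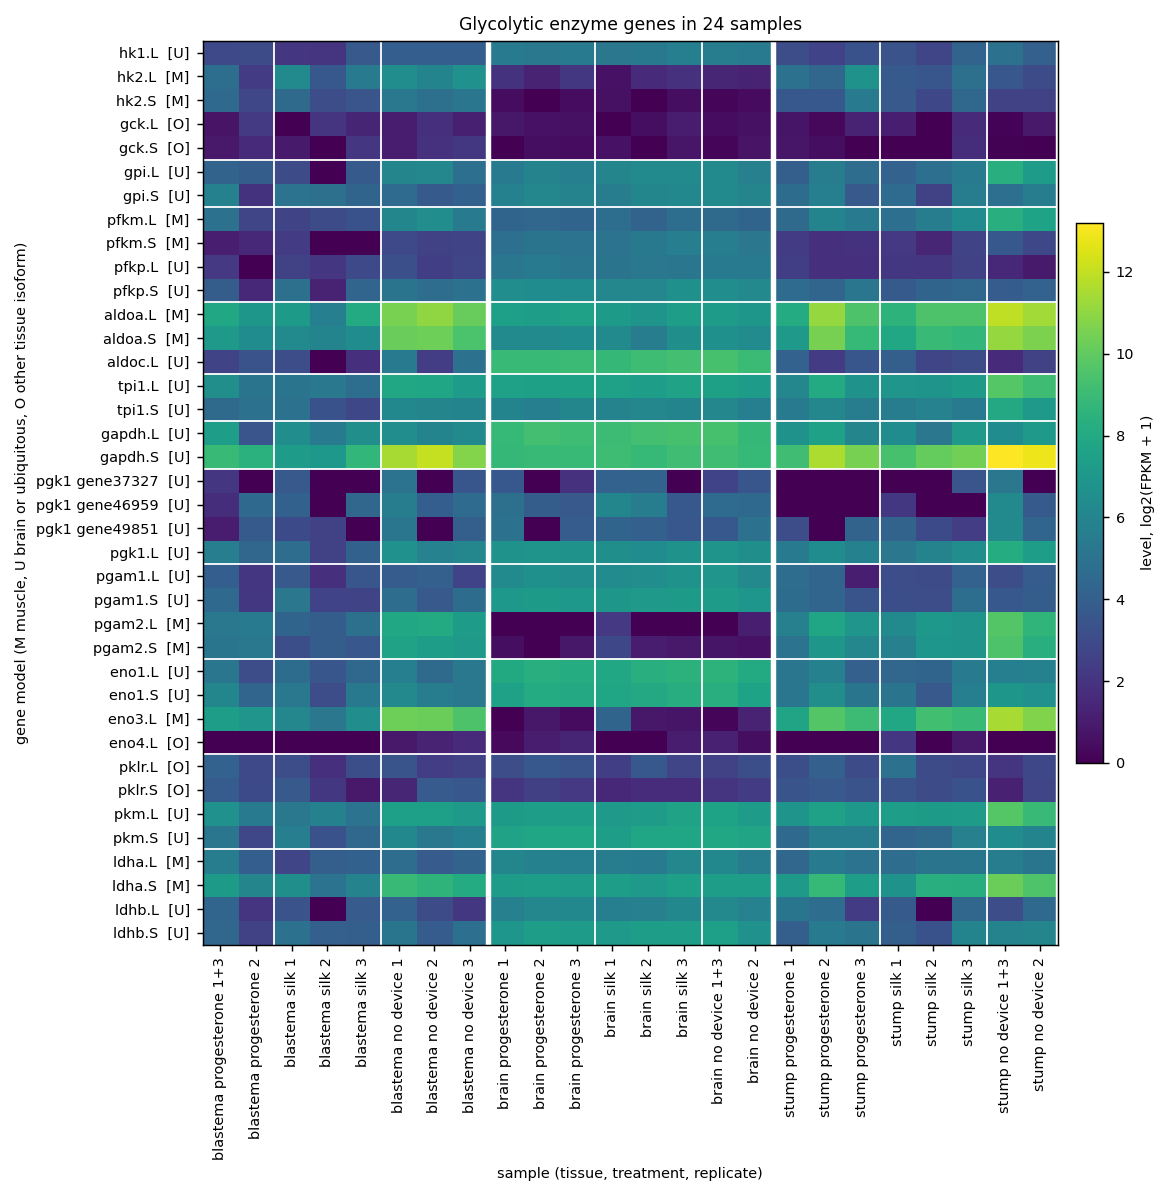
Level of the glycolytic gene models, as log2(FPKM + 1) by colour, in rows ordered by enzyme step, against the 24 samples in columns ordered by tissue and treatment. The brightest row, gapdh.S, reaches 9476 FPKM in stump without a device, and the rows eno3.L, pgam2.L and pgam2.S are near 0 in all brain samples but 1.

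The stump without a device held the most glycolytic transcript. Summed over the 40 models, the level was 5962.5 to 10668 FPKM in blastema without a device and 3743 to 4832 FPKM in brain over its 3 treatments, against 24919.9 and 17208.8 FPKM in stump without a device. A single copy, gapdh.S (glyceraldehyde phosphate dehydrogenase, the step that makes the first NADH), made up 11.02% to 14.0% of that sum in brain, against 38.0% and 43.3% in stump without a device. Of the 40 models, 15 had their highest group mean in a brain group and 17 in stump without a device. The muscle class had 7 of its 11 maxima in stump without a device, and the exceptions were pfkm.S and ldha.L with maxima in brain, and both hk2 copies with maxima in blastema without a device. The brain or ubiquitous class was split, with 13 maxima in brain and 9 in stump, the stump ones including gpi.L, tpi1.L, tpi1.S, gapdh.S and pkm.L.

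Brain and stump without a device differed at most steps of the pathway. Which tissue was higher varied between isoforms, and for pfkm and gapdh between copies. Several of these directions were largely set by the filter, as given with each model below. Differences are brain minus stump on the log2(FPKM + 1) scale with standard errors, from a limma fit of all 9 groups over the 5924 genes with a mean of at least 10 FPKM, and a gene is called at a Benjamini-Hochberg adjusted p under 0.05. Of the 32 glycolytic models that passed the filter, 8 were called higher and 12 lower in brain, against 40.7% of all genes called in either direction (31.5% higher and 9.18% lower). The muscle class had 1 model higher and 8 lower of 11 tested, and the brain or ubiquitous class 7 higher and 4 lower of 21. Models that passed the filter only through brain (such as pfkp.L) or only through limb tissue (such as eno3.L) had their direction largely set by it. The median difference was -3.58 for the muscle class, 1.12 for the brain or ubiquitous class and 0.84 for all genes. After median-of-ratios scaling, which moved the median of all genes to -0.14, the calls were 4 higher and 15 lower. Of all 5924 genes, 1216 were then called higher and 1300 lower. Leaving out 1 sample gave 14 to 17 calls, with 14 when stump no device 1+3 was left out.

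At the entry to the pathway, hk1.L (hexokinase 1, the housekeeping form) had 46.1 and 42.8 FPKM in brain and 29.4 and 15.4 FPKM in stump, a difference of 1.03 ± 0.53 that was not called (adjusted p = 0.135). The muscle hexokinase hk2.S had 0.195 and 0.30 FPKM in brain, against 5.11 and 5.14 FPKM in stump, and was called lower (-2.30 ± 0.65, adjusted p = 0.00764). In brain hk2.S was at most 0.52 FPKM, so it passed the filter only through limb tissue and its call is no support. Its more abundant homeolog hk2.L averaged 1.57 FPKM in brain and 9.23 FPKM in stump and was not called (-1.97 ± 0.87, adjusted p = 0.0803). Phosphofructokinase, the committed step, was divided between copies of the same gene. For pfkm.L the brain had 22.6 and 17.8 FPKM, against 315 and 200 FPKM in stump, a difference of -3.58 ± 0.64 (adjusted p = 0.000134). Its homeolog pfkm.S went the other way, with 49.6 and 36.35 FPKM in brain, against 11.4 and 6.22 FPKM in stump, a difference of 2.20 ± 0.61 (adjusted p = 0.00627). In limb tissue pfkm.S was at most 11.4 FPKM. It passed the filter mainly through brain, so its direction was largely set by the filter. The platelet-type form was also higher in brain in both copies, with 42.4 and 40.3 FPKM of pfkp.L in brain, against 1.90 and 0.96 FPKM in stump (difference 4.15 ± 0.54, adjusted p = 3.55e-06). In limb tissue pfkp.L was at most 8.38 FPKM, so it passed the filter only through brain and its call is no support.

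Aldolase, which splits fructose bisphosphate, was led by aldoc in brain and by aldoa in stump. In brain aldoc.L had 657 and 518 FPKM, against 1.99 and 5.17 FPKM in stump, a difference of 7.09 ± 0.91 (adjusted p = 3.21e-06). In limb tissue aldoc.L was at most 44.1 FPKM. It passed the filter mainly through brain, so its direction was largely set by the filter. The muscle form aldoa.L had 153 and 126 FPKM in brain, against 3979.5 and 2632 FPKM in stump, a difference of -4.53 ± 0.76 (adjusted p = 6.92e-05), and aldoa.S was called lower as well. For these 3 models the brain and stump samples did not overlap, which was also so for 81.9% of all genes. Both copies of triose phosphate isomerase, tpi1.L and tpi1.S, were lower in brain, with differences of -2.003 ± 0.54 and -1.64 ± 0.52.

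The copies of gapdh parted as those of pfkm did. For gapdh.S the brain had 565 and 464 FPKM, against 9476 and 7458 FPKM in stump, and the difference was -4.04 ± 0.65 (adjusted p = 4.64e-05). For gapdh.L the brain had 648 and 440 FPKM, against 84.3 and 134 FPKM in stump, and the difference was 2.32 ± 0.85 (adjusted p = 0.035). So the copies were about level in brain, while in stump the .S copy stood far above the .L copy.

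In the lower part of the pathway the contrasts between isoforms were the widest. Enolase 3, eno3.L, had 0.16 and 1.38 FPKM in brain, against 2884 and 1699 FPKM in stump, a difference of -10.38 ± 0.89 (adjusted p = 6.91e-08). Both copies of the muscle phosphoglycerate mutase were near 0 in brain, with 0 and 1.13 FPKM of pgam2.L in brain, against 805 and 406 FPKM in stump (difference -8.62 ± 0.70, adjusted p = 5.56e-08). The models eno3.L, pgam2.L and pgam2.S passed the filter only through limb tissue. Their direction was largely set by it, and their calls are no support. The ubiquitous mutase rose in brain, where pgam1.S had 157 and 121 FPKM, against 11.7 and 13.7 FPKM in stump (difference 3.34 ± 0.81, adjusted p = 0.00233). Of the ubiquitous enolase, eno1.L was called higher in brain (2.58 ± 0.65) and eno1.S was not (1.13 ± 0.75, adjusted p = 0.249). Pyruvate kinase, the last step to pyruvate, had pkm.L lower in brain (-1.86 ± 0.45, adjusted p = 0.00233), while pkm.S had a difference of 1.60 ± 0.73 (adjusted p = 0.0884). Lactate dehydrogenase A was lower in brain in its .S copy (-2.54 ± 0.62, adjusted p = 0.00266), and neither ldhb copy was called. The muscle markers were lower in brain in 22 of 22 tested models and the neuronal markers higher in 13 of 13. Only 1 of 23 muscle models passed the filter in the brain fit, and 1 of 15 neuronal models in the stump fit. Most thus entered through the tissue where they are high, and these counts are no support.

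**Figure D2:**
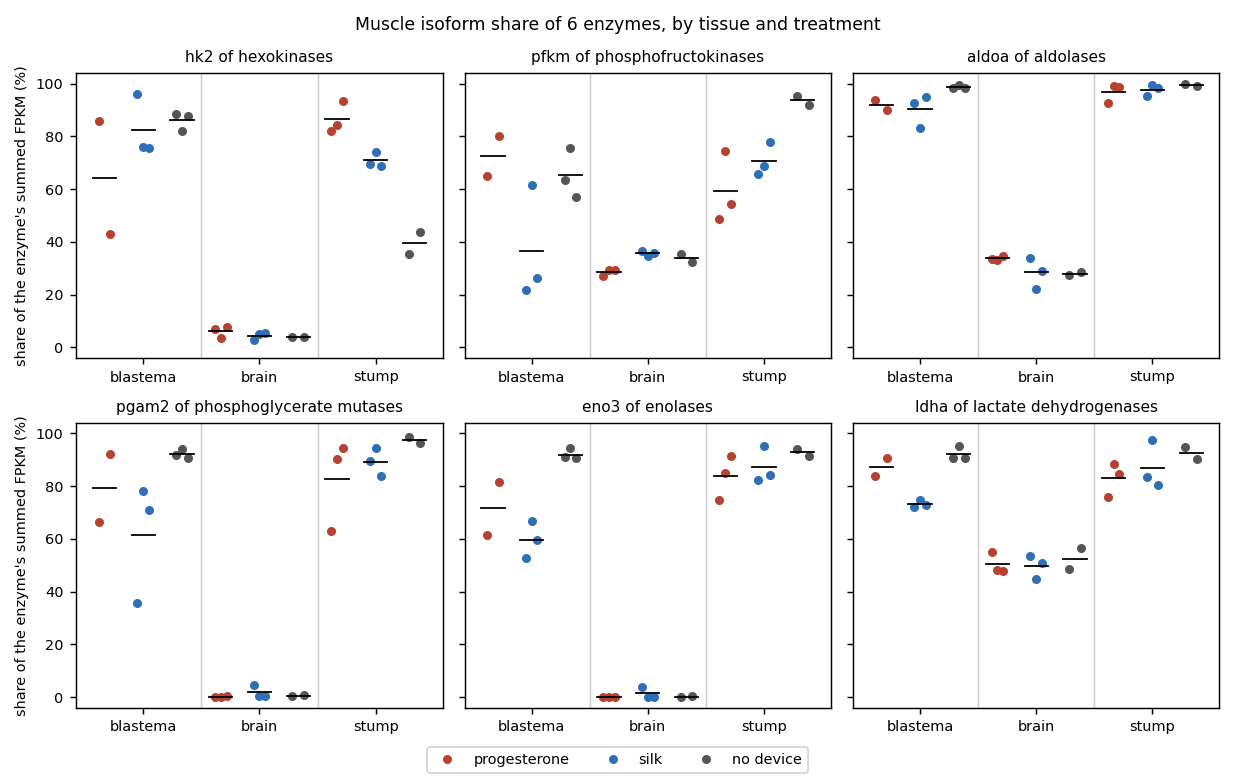
Share of the muscle isoform in the summed FPKM of its enzyme, in percent, for 6 enzymes. Points are samples coloured by treatment and grouped by tissue, and bars are group means. In brain, eno3 and pgam2 stay under 5% in every sample, while in limb tissue most points lie above 60%.

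The share of the muscle isoform within an enzyme is formed inside a library, so a factor common to all genes of a library cancels. The share of eno3 in enolase RNA was 0% to 3.81% in brain, 52.6% to 94.6% in blastema and 74.9% to 95.2% in stump. For pgam2 the share was 0% to 4.48% in brain, 35.5% to 94.0% in blastema and 62.9% to 98.7% in stump. Aldolase and lactate dehydrogenase were less one-sided, since aldoa still made up 22.3% to 34.6% of aldolase RNA in brain and ldha 45.0% to 56.5% of lactate dehydrogenase RNA. The muscle isoform of phosphofructokinase made up 27.0% to 36.6% in brain, most of it from pfkm.S. Hexokinase 2 held 2.79% to 7.79% of hexokinase RNA in brain, 43.1% to 96.0% in blastema and 35.3% to 93.6% in stump. All 6 shares were lower in brain than in stump (n = 8 each), with no overlap in any treatment. An exact two-sided permutation of tissue labels within treatment gave p = 0.000833 for each (adjusted p = 0.00417 over 30 tests). This is the smallest p it can give. Brain silk 3, as close to brain no-device libraries as the merged pairs, counted as a separate sample. The 8 brain samples may thus not all be independent. By the same permutation enolase averaged 74.4% in blastema and 88.0% in stump, and aldolase 93.6% in blastema and 98.03% in stump (n = 8 each, adjusted p = 0.0462 for both). With only models of a mean of at least 10 FPKM, blastema aldolase shares were 97.1% with progesterone, 98.7% with silk and 98.9% without a device. Stump shares were then 98.4%, 98.8% and 99.9%, so this aldolase difference rests largely on models of low level. The other 4 shares did not pass between blastema and stump (adjusted p from 0.12 to 0.408).

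In limb tissue the share of several muscle isoforms was lower with a device. Here treatment labels were permuted within tissue, means run over both limb tissues, and p-values were adjusted over the same 30 tests of 6 enzymes, which were chosen after the values had been seen. With silk, phosphoglycerate mutase averaged 75.4% of the muscle isoform, against 94.9% without a device, and no silk sample reached a no-device sample of the same tissue (n = 6 and 5, adjusted p = 0.0429). In blastema with silk this phosphoglycerate mutase share ran from 35.5% to 78.0%, and both pgam2 copies rest on few estimated reads. In the same samples pfkm.L rests on an estimated 4.86 to 5.81 reads per library. For phosphofructokinase the means were 53.7% with silk and 79.6% without a device (adjusted p = 0.0462), and for enolase 73.4% with silk and 92.4% without a device (adjusted p = 0.0462). Aldolase and lactate dehydrogenase had differences of -5.12 and -12.2 percentage points with silk and an exact adjusted p of 0.050, which is not under the threshold. With progesterone the enolase share averaged 77.7%, against 92.4% without a device, and the aldolase share 94.4%, against 99.1% (n = 5 each, adjusted p = 0.0462 for both by the same permutation). The aldolase difference rests on models of low level: with only models of a mean of at least 10 FPKM, the blastema share was 97.1% with progesterone and 98.7% with silk, against 98.9% without a device. Phosphoglycerate mutase, phosphofructokinase and lactate dehydrogenase did not pass with progesterone (adjusted p = 0.12, 0.314 and 0.112, exact permutation). Hexokinase 2 averaged 76.7% with silk and 75.5% with progesterone, against 62.8% without a device, and did not pass in either case (adjusted p = 0.158 and 0.408). Both devices were compared with the same no-device samples. Progesterone against silk did not pass for any of the 6 shares (adjusted p from 0.408 to 0.91), with the widest difference, 12.1 percentage points, for phosphofructokinase. In the same samples 22 of 22 tested muscle markers had a negative difference in each device comparison with no device, with medians of -2.77 for progesterone and -4.04 for silk in blastema and -2.53 for progesterone and -2.95 for silk in stump. Of 8 tested erythrocyte markers, 6 had a positive difference with progesterone in blastema and all 8 in the other 3 comparisons. Their part in the shares was not tested.

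**Figure D3:**
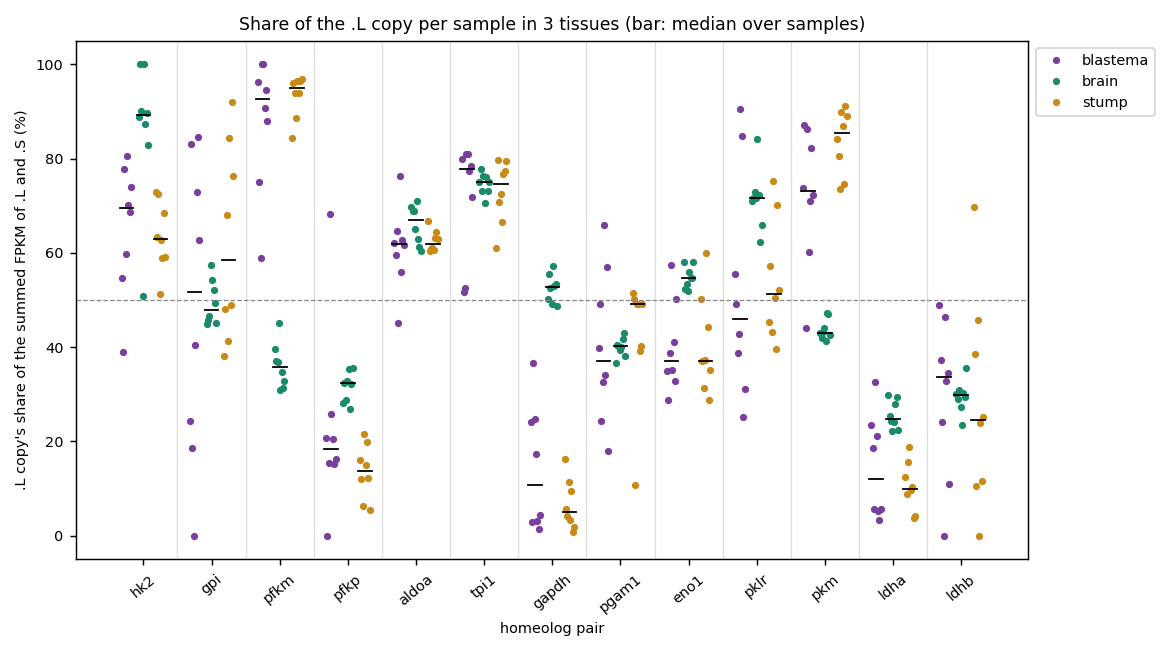
Share of the .L copy in the summed FPKM of the .L and .S copies, in percent, for the homeolog pairs shown. Points are samples coloured by tissue, bars are medians over samples, and the dashed line marks equal levels. Brain points stand apart from stump points for pfkm, pfkp, gapdh, pkm and ldha.

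The homeolog copies of 14 pairs were compared in the same way between brain and stump, within treatment. The share of .L differed in 5 pairs with no overlap in any treatment. Each reached the smallest p that this permutation can give (p = 0.000833, adjusted p = 0.0117 over 70 tests). Brain silk 3 counted here too as a separate sample. For pfkm the .L share averaged 35.6% in brain and 93.7% in stump, and for pkm 43.9% in brain and 84.4% in stump. The other 3 pairs had the larger .L share in brain: gapdh with 52.3% in brain and 6.04% in stump, pfkp with 31.8% in brain and 13.0% in stump, and ldha with 25.7% in brain and 9.76% in stump. A sixth pair, hk2, also passed (86.2% in brain and 63.6% in stump, adjusted p = 0.0389), but rests in brain on levels of 0.54 to 3.37 FPKM for hk2.L and 0 to 0.52 FPKM for hk2.S. The copies of aldoa had similar median shares, with 66.9% in brain, 61.9% in blastema (45.2% to 76.4% over samples) and 62.0% in stump, although the sum of both copies differed many-fold between brain and stump. For tpi1 the medians were 75.0% in brain, 77.8% in blastema (51.6% to 81.0% over samples) and 74.6% in stump. No pair differed between blastema and stump (adjusted p from 0.249 to 0.989). In limb tissue no pair passed for a device against no device, with the smallest adjusted p, 0.070, for gapdh and ldha.

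Without a device, blastema had lower values of the muscle set than stump for most members and higher ones of hexokinase 2. In this comparison 3 of 32 tested models were called higher in blastema and 5 lower, against 23.2% of all genes called, most of which were higher (20.4% of all genes were called higher and 2.77% lower). The median difference of the 32 models was -1.06, against 0.58 for all genes. Median-of-ratios scaling moved the median of all genes to -0.33 and gave 2 members higher and 17 lower. It also called 685 of all 5924 genes higher and 917 lower, so calls of lower genes rose beyond the members. Leaving out stump no device 1+3 left 0 calls, stump no device 2 left 4 and blastema no device 3 left 3.

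The hexokinase that is induced by insulin and low oxygen in mammals, hk2, was among the 3 higher models. In blastema without a device hk2.L had 88.7, 61.4 and 102 FPKM, against 11.1 and 7.41 FPKM in stump without a device, and the difference was 3.05 ± 0.80 (adjusted p = 0.0113). Its homeolog hk2.S had 37.6, 28.0 and 35.8 FPKM in blastema, against 5.11 and 5.14 FPKM in stump, a difference of 2.50 ± 0.59 (adjusted p = 0.00686). All blastema samples lay above both stump samples for both copies, while 58.9% of all genes had no overlap in either direction. The stump means without a device were under 10 FPKM, so both copies passed the filter through other samples. The call of hk2.L was lost without either stump sample (adjusted p = 0.070 and 0.0789), and that of hk2.S without stump no device 1+3 (adjusted p = 0.0685). With a device hk2.L was not called between the tissues, with a difference of -1.86 ± 0.80 with progesterone and 1.08 ± 0.71 with silk (adjusted p = 0.307 and 0.569). Platelet-type pfkp.L was the third higher model, with 8.38, 4.55 and 5.79 FPKM in blastema, against 1.90 and 0.96 FPKM in stump (difference 1.57 ± 0.49, adjusted p = 0.0275). It passed the filter only through brain, where it had 33.2 to 42.4 FPKM, and its limb values were at most 8.38 FPKM.

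The 5 models called lower in blastema without a device were pkm.L, pfkm.L, tpi1.L, tpi1.S and pgk1.L. Pyruvate kinase pkm.L had 177, 177 and 135 FPKM in blastema, against 857 and 494 FPKM in stump, a difference of -2.001 ± 0.41 (adjusted p = 0.0031). The muscle isoforms eno3.L, aldoa.L and pgam2.L had differences of -1.10 ± 0.81, -1.08 ± 0.70 and -1.42 ± 0.64 and were not called, although their samples did not overlap. Samples of the 2 tissues did not overlap for 22 of 32 members, against 58.9% of all genes. The summed muscle markers were 16606 to 32274 FPKM in blastema and 55380 and 84797 FPKM in stump without a device, and 22 of 22 had a negative difference with 1 called. Neuronal markers had a positive difference in 13 of 13 tested models, with a median of 2.30 and 9 called, but these models passed the filter mainly through brain, since 2 of 15 passed it in the blastema fit and 1 in the stump fit. The part of these markers in the glycolytic differences was not tested.

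With silk, 8 of 32 members were called lower in blastema than in stump and none higher, against 1.57% of all genes called (1.47% lower and 0.101% higher). They were pgam2.L, pgam2.S, pkm.L, pfkm.L, tpi1.L, tpi1.S, gapdh.S and pgk1.L. The mutase pgam2.S had 8.06, 13.8 and 11.0 FPKM in blastema, against 53.5, 120 and 112.5 FPKM in stump, a difference of -2.95 ± 0.54 (adjusted p = 0.00844). Every blastema sample was below every stump sample, as for 14 of the 32 members, against 10.6% of all genes without overlap. The median of the 32 members was -1.35, against -0.21 for all genes. Of the muscle markers 22 of 22 had a negative difference here too, with a median of -2.48 and 2 called, and their part was not tested. Leaving out blastema silk 2, stump silk 2 or stump silk 3 left 3 calls. With progesterone, 0 of 32 were called by limma (0% of all genes), while 11 had an unadjusted p under 0.05, as did 871 of 5924 genes. Leaving out the merged sample blastema progesterone 1+3 leaves a single blastema sample, progesterone 2, in which smad4.1.S took 25.9% of reads. The median of the members minus that of all genes was then -0.98, against -0.60 with all samples. Without stump progesterone 1, 2 members were called, and no count over all genes is given for that fit.

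**Figure D4:**
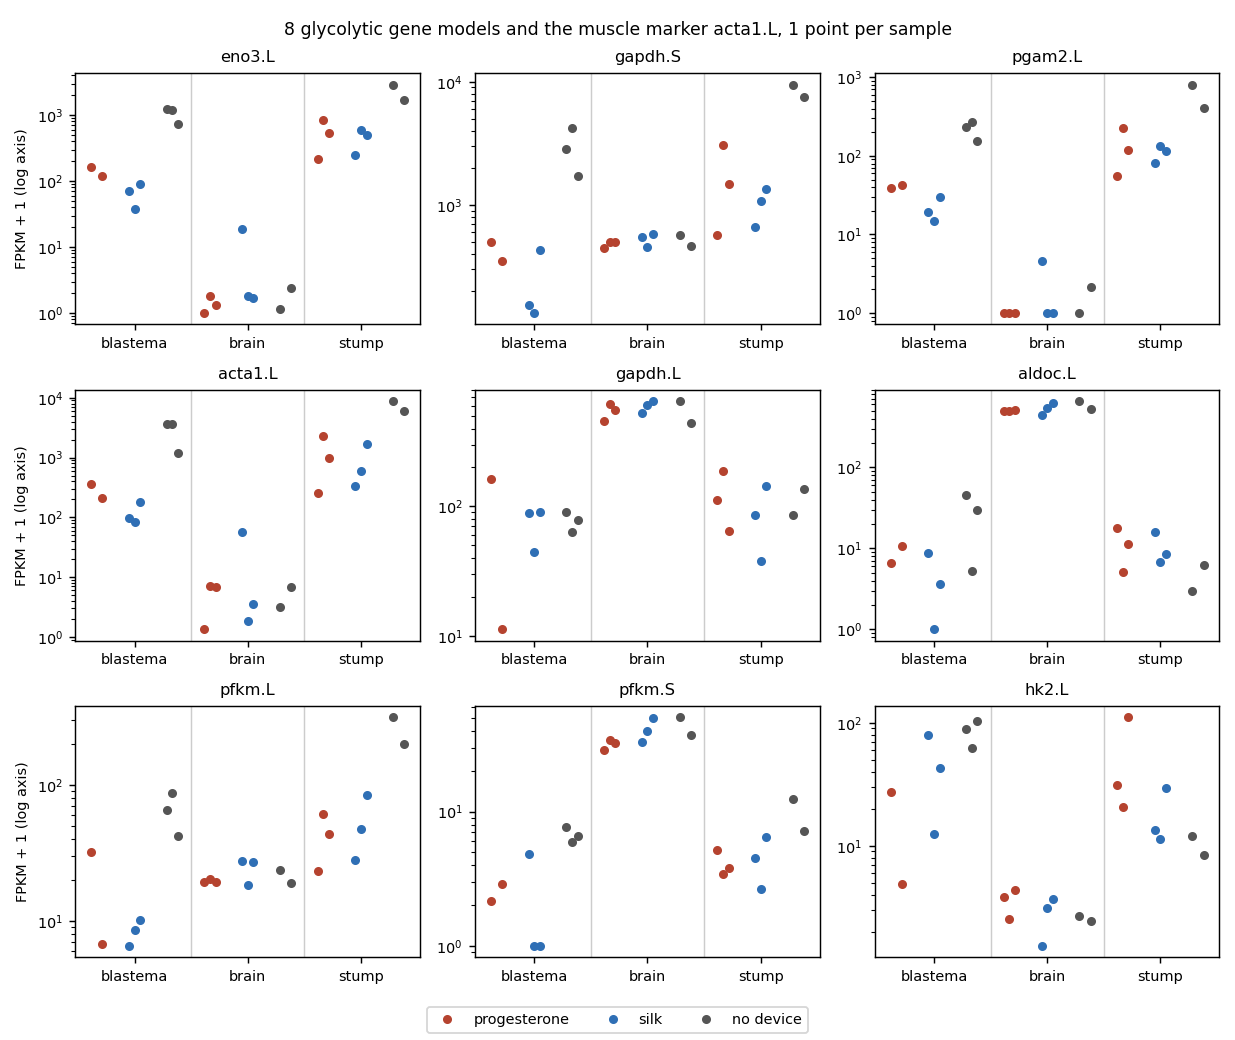
Level of 8 glycolytic gene models and of the muscle actin acta1.L in each sample, as FPKM + 1 on a log axis, grouped by tissue and coloured by treatment. In both limb tissues the no-device samples of eno3.L, gapdh.S, pgam2.L and acta1.L lie above the device samples of the same tissue, which is not so for gapdh.L, and hk2.L in stump has its progesterone samples above both no-device samples.

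In blastema, the silk device went with much lower RNA of the muscle set. The comparison of silk with no device, in a limma fit of the blastema samples over 5224 genes, called 5 of 26 tested members lower and none higher, against 1.44% of all genes called (1.34% lower and 0.0957% higher). Median-of-ratios scaling, which moved the median of all genes to -0.10, left 0 members called, with 2 of all genes called higher and 7 lower. A filter of 1 FPKM in 3 samples and no filter also left 0 members called. Enolase 3, eno3.L, had 69.0, 36.5 and 88.3 FPKM with silk, against 1252, 1209 and 724 FPKM without a device, a difference of -4.06 ± 0.59 (adjusted p = 0.0288). Aldolase aldoa.S had 80.3, 60.8 and 83.6 FPKM with silk, against 1188, 1240 and 711 FPKM without a device (-3.76 ± 0.56, adjusted p = 0.0288). The silk samples of both genes lay far below every no-device sample.

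The muscle mutase and the gapdh copy that was high in stump followed. With silk pgam2.S had 8.06, 13.8 and 11.0 FPKM, against 194, 166 and 135 FPKM without a device (-3.81 ± 0.53, adjusted p = 0.0288), and pgam2.L was called with -3.39 ± 0.56 (adjusted p = 0.0307). These silk values rest on an estimated 3.03 to 3.99 reads per library for pgam2.S and 4.16 to 8.21 for pgam2.L. For gapdh.S the values were 153, 131 and 427 FPKM with silk, against 2823, 4195 and 1732 FPKM without a device (-3.73 ± 0.67, adjusted p = 0.0371). Its homeolog gapdh.L had 88.0, 43.5 and 89.7 FPKM with silk, against 89.5, 62.3 and 77.7 FPKM without a device, and the groups overlapped (-0.11 ± 0.94, adjusted p = 0.989). By class, the median difference was -3.16 over 10 muscle models, all 10 negative, and -1.64 over 16 brain or ubiquitous models, 15 of them negative, against -0.40 for all genes. Samples did not overlap for 14 of 26 members, all lower with silk, against 22.6% of all genes. The summed muscle markers were 947 to 2616 FPKM with silk and 16606 to 32274 FPKM without a device. Of 22 tested muscle markers 17 were called lower, with a median of -4.04, and smad4.1.S took 22.3% to 39.5% of reads with silk and at most 1.11% without a device. Their part in these differences was not tested. No call was left when any 1 of the 3 no-device samples, silk 1 or silk 2 was left out, and eno3.L then had differences of -3.71 to -4.32 (adjusted p from 0.0647 to 0.201).

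With progesterone in blastema, no member was called by limma, nor was any of the 5224 genes (0%). Of 10 tested muscle models 9 had a negative difference and ldha.L a positive one (0.51 ± 0.76), measured against the same no-device samples as silk. Enolase 3, eno3.L, had 162 and 118 FPKM with progesterone (-2.89 ± 0.66, adjusted p = 0.481), gapdh.S had 503 and 350 FPKM (-2.70 ± 0.75, adjusted p = 0.502) and aldoa.S had 143 and 85.5 FPKM (-3.19 ± 0.63, adjusted p = 0.46). For these genes both progesterone samples were below all 3 no-device samples. Over 26 members 25 differences were negative, 10 had an unadjusted p under 0.05, as did 257 of 5224 genes, and the median was -1.61, against -0.12 for all genes. Samples did not overlap for 17 members, against 19.6% of all genes. Muscle markers summed to 2837 and 4015 FPKM with progesterone, and 22 of 22 had a negative difference with none called.

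Set against silk, progesterone left 0 of 26 members called in blastema (limma, 0% of all genes), and 1 had an unadjusted p under 0.05, as did 197 of 5224 genes. The largest difference among the muscle set was that of pgam2.S, with 33.7 and 37.8 FPKM with progesterone, against 8.06, 13.8 and 11.0 FPKM with silk (1.65 ± 0.60, adjusted p = 1.00). The samples did not overlap for this and 4 other members, all higher with progesterone, against 10.7% of all genes. For eno3.L the difference was 1.17 ± 0.66 and for gapdh.S 1.03 ± 0.75. All 22 tested muscle markers had a positive difference in this comparison, with a median of 1.19 and none called.

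**Figure D5:**
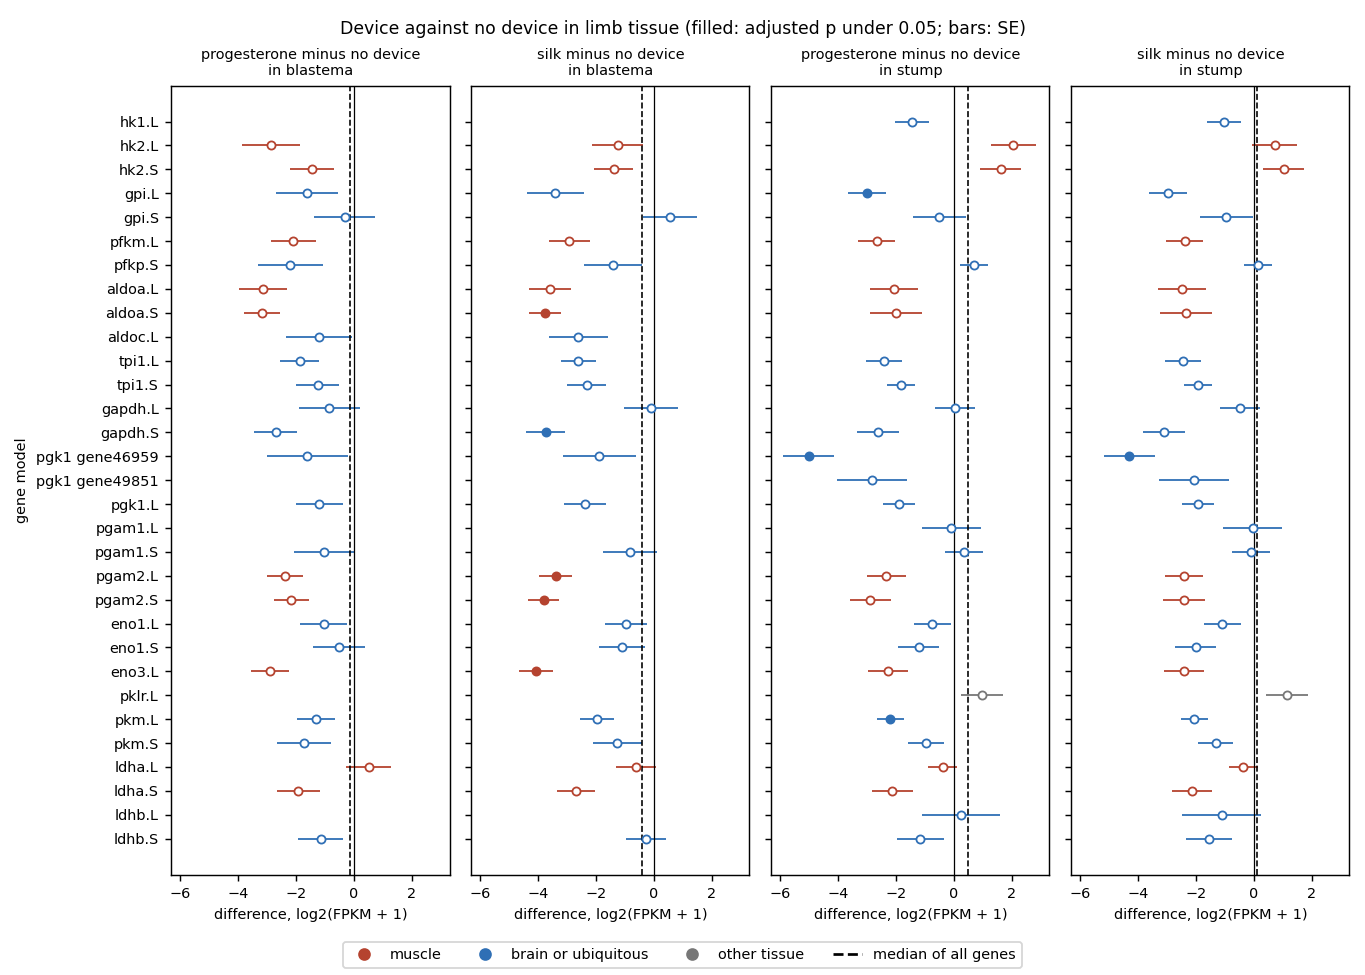
Difference of tested gene models between a device and no device, on the log2(FPKM + 1) scale with its standard error, in 4 panels for progesterone and silk in blastema and in stump. Filled points have an adjusted p under 0.05, colours give the isoform class and the dashed line is the median of all genes. Most points lie left of that line, and in stump hk2.L and hk2.S lie to its right.

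In stump, values of the muscle set other than hexokinase 2 lay lower with both devices, and no model of the muscle class passed the test. With silk, limma called 1 of 31 tested members lower and none higher, against 2.67% of all 4414 genes called, most of them higher (2.31% higher and 0.362% lower). The called model was pgk1 gene46959, a short model with an estimated length of 0.262 kb. It was listed at 3.44, 0 and 0 FPKM with silk, against 77.2 and 12.3 FPKM without a device (adjusted p = 0.0485), and the silk libraries were less deep. It passed the filter only through its no-device values, so a model entering the fit this way had to differ, and its call is no support for a change. The isomerase gpi.L had 16.8, 27.1 and 43.4 FPKM with silk, against 314 and 152 FPKM without a device, a difference of -2.97 ± 0.66 (adjusted p = 0.0515). For gapdh.S the values were 657, 1080 and 1343.5 FPKM with silk, against 9476 and 7458 FPKM without a device (-3.09 ± 0.72, adjusted p = 0.0556). These silk samples were all several-fold below the no-device samples, and the fit did not call them.

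With progesterone in stump, 3 of 31 members were called lower and none higher, against 3.72% of all genes called, most of them higher (3.47% higher and 0.249% lower). The isomerase gpi.L, which turns glucose phosphate into fructose phosphate, had 15.2, 47.7 and 25.8 FPKM with progesterone, against 314 and 152 FPKM without a device (-2.99 ± 0.66, adjusted p = 0.0481). Pyruvate kinase pkm.L had 114, 190 and 133 FPKM with progesterone, against 857 and 494 FPKM without a device (-2.19 ± 0.48, adjusted p = 0.0481). The third was pgk1 gene46959, listed at 0 in all progesterone samples (adjusted p = 0.032), which here too passed the filter only through its no-device values. The homeologs gpi.S and pkm.S had smaller differences, -0.50 ± 0.92 and -0.97 ± 0.62, and were not called. Enolase 3, eno3.L, had 213, 828 and 538 FPKM with progesterone and 245, 584 and 491 FPKM with silk, against 2884 and 1699 FPKM without a device, with adjusted p of 0.0932 and 0.0732.

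Across the 31 members in stump the median difference was -1.92 with silk and -1.45 with progesterone, against 0.11 and 0.47 for all genes, and both comparisons share the 2 no-device samples. Samples did not overlap for 19 members with silk and 23 with progesterone, against 44.8% and 52% of all genes. Median-of-ratios scaling moved the median of all genes to -0.51 and -0.30 and gave 13 and 8 members called lower. It called 406 and 135 of all 4414 genes lower, so these calls too rose beyond the members. Leaving out either no-device sample left 0 calls in both comparisons. Leaving out stump progesterone 2 gave 9 calls with silk and 12 with progesterone. No count over all genes is given for that fit, so these member counts show only how calls moved. The muscle markers summed to 5529 to 12391 FPKM with silk and 4447 to 28701 FPKM with progesterone, against 55380 and 84797 FPKM without a device, with all 22 differences negative in both and none called. Erythrocyte markers summed to 22616 to 69466 FPKM with silk and 29089 to 90682 FPKM with progesterone, against 3563 and 5325 FPKM without a device. The part of these shifts and of depth in the glycolytic levels was not tested. Progesterone against silk in stump gave 0 calls among 31 members (limma, 0% of all genes), 0 members with an unadjusted p under 0.05, against 106 of 4414 genes, and differences from -0.75 to 1.35. Samples overlapped for all 31 members, while 6.21% of all genes had no overlap.

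Hexokinase 2 had positive differences in stump with both devices. For both copies the no-device mean was under 10 FPKM, so they passed the filter of the stump fit only through the device samples. Their positive direction was thus favoured by the filter. With progesterone hk2.L had 30.4, 19.8 and 110 FPKM and with silk 12.5, 10.4 and 28.5 FPKM, against 11.1 and 7.41 FPKM without a device. All progesterone samples were above both no-device samples, and the silk samples overlapped them. With progesterone 52% of all genes had no overlap in either direction. The differences from no device, 2.05 ± 0.77 with progesterone and 0.72 ± 0.77 with silk, were not called (adjusted p = 0.134 and 0.595). In blastema the difference was -2.85 ± 0.99 with progesterone and -1.25 ± 0.89 with silk (adjusted p = 0.788 and 0.755). The progesterone effect of hk2.L differed between blastema and stump by -4.90 ± 1.13 in a limma interaction fit of all groups, added after the values had been seen, and did not pass (adjusted p = 0.0549).

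In brain no glycolytic gene was called for either device, and most differences were small. None of 27 tested members was called by limma with progesterone or silk against no device or with progesterone against silk (0% of 7922 genes in each), and 0, 0 and 1 member had an unadjusted p under 0.05, as did 226, 315 and 607 genes. Brain aldolase aldoc.L had 501, 489 and 514 FPKM with progesterone and 444, 543 and 617 FPKM with silk, against 657 and 518 FPKM without a device, with overlap between silk and no device. The widest differences among models other than the short pgk1 ones were those of gpi.L between progesterone and silk (-0.51 ± 0.19, adjusted p = 0.632) and of pfkm.S between progesterone and no device (-0.46 ± 0.22, adjusted p = 1.00). The median over members was -0.08 with progesterone and -0.06 with silk against no device, and -0.04 for all genes with progesterone and -0.13 with silk. Leaving out any 1 brain sample, brain silk 3 included, also gave 0 calls.

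The isoforms of other tissues named here stayed low. Glucokinase, the liver and islet hexokinase of mammals, had at most 3.79 FPKM for gck.L and 3.41 FPKM for gck.S in any sample. The model eno4.L, named for a sperm enolase of mammals, reached 3.31 FPKM. Liver and red cell pyruvate kinase reached 29.1 FPKM for pklr.L and 13.3 FPKM for pklr.S. Of these models, pklr.L passed the filter, in the stump fit alone, and was not called. The models pgk1 gene37327, pgk1 gene46959 and pgk1 gene49851 have estimated lengths of 0.320, 0.262 and 0.928 kb, and their values jumped between samples of a group (0 to 31.5 FPKM for gene37327 in blastema without a device). The full-length copy pgk1.L (phosphoglycerate kinase, the first step that makes ATP) had 49.4 and 19.8 FPKM with progesterone and 25.8, 5.18 and 16.3 FPKM with silk, against 102, 57.5 and 67.6 FPKM without a device in blastema, and was not called there.

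Genes around the pathway were read from 8 lists with 103 models for glucose transport, regulators of fructose bisphosphate, glycogen, pyruvate and lactate, gluconeogenesis, pentose phosphate, NADH shuttles and a triose side branch. In blastema none of the 42 tested models was called for a device against no device (limma; 1.44% of all genes for silk and 0% for progesterone), and in brain none of 56. In stump 2 of 52 were called lower with silk and 3 lower with progesterone, against 0.362% and 0.249% of all genes called lower. The glycogen phosphorylase kinase subunit phkg1.S was among them in both, with 9.72 ± 1.74 FPKM with silk and 9.33 ± 3.45 FPKM with progesterone (SD, n = 3 each), against 65.6 ± 31.2 FPKM without a device (n = 2). With device means under 10 FPKM, phkg1.S passed the filter only through its no-device values. Its call, counted above, is therefore no support for a change. Muscle fructose bisphosphatase fbp2.L (-2.78 ± 0.55) and the mitochondrial pyruvate carrier mpc1.S (-2.96 ± 0.66) were called with progesterone, and the mitochondrial aspartate aminotransferase got2.L (-2.64 ± 0.55) with silk.

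Between blastema and stump without a device, 6 of 8 NADH shuttle models were called lower in blastema, against 2.77% of all genes, among them the malate dehydrogenases mdh1.L (-2.55 ± 0.40, adjusted p = 0.000984) and mdh2.L (-2.24 ± 0.38, adjusted p = 0.00133), and with silk 5 of 8 were, against 1.47% of all genes. Of all 60 tested pathway models, 3 were higher and 16 lower without a device (20.4% and 2.77% of all genes), and 8 lower with silk. With silk mpc1.S was listed at 0 in all 3 blastema samples, against 22.1 ± 4.43 FPKM in stump (SD, n = 3). In these shallow blastema libraries 1 read in a gene 1 kb long equalled 3.38 to 4.53 FPKM, so a listing at 0 is not absence.

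Between brain and stump without a device, 7 of 60 pathway models were called higher and 15 lower in brain, against 31.5% and 9.18% of all genes, so that the share called in either direction was near the 40.7% of all genes. The glucose transporter model slc2a2.L had 78.7 ± 6.56 FPKM in brain and 0.020 ± 0.028 FPKM in stump (SD, n = 2 each, difference 6.29 ± 0.57). The glycogen phosphorylase models ran against the tissue names that they carry in mammals. The model pygb.S, named for the brain form, had 0.247 ± 0.244 FPKM in brain and 533 ± 97.5 FPKM in stump, and pygm.L, named for the muscle form, had 109 ± 1.09 FPKM in brain and 4.12 ± 2.94 FPKM in stump (adjusted p = 4.29e-07 and 1.02e-06). Both are called here as the names in the files give them. The filter was passed by slc2a2.L and pygm.L only through brain and by pygb.S only through limb tissue. The directions of these 3 models were thus largely set by the filter.

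The authors' own comparisons, in the authors' deposited tables, listed more glycolytic models as changed. The counts are not on equal terms. The main test here counted near-identical libraries as 1 sample and took only genes that passed the filter. With separate libraries the limma test called 14 members with progesterone and 15 with silk in stump. Near-identical libraries then count as separate samples, which understates the spread. No count over all genes is given for that setting, so these member counts show only how calls moved. At a deposited q under 0.05, the authors' deposited table had 4 members lower with progesterone and 7 lower with silk in blastema against no device (1.48% and 0.319% of all listed genes). In stump the authors' deposited tables had 23 members lower and 1 higher with progesterone, and 24 lower and 1 higher with silk, out of 15.3% and 26.5% of all genes. No member passed in brain or between progesterone and silk in the authors' deposited tables.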

How the data were processed

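Libraries were made from total RNA after depletion of ribosomal RNA, per the labels, and reads of 40 nt were sequenced. FastQC, Trimmomatic, STAR, RSEM and edgeR were used by the authors, per the submitters' processing notes, without stated versions or roles. No coordinates are printed, because genome build and annotation were not given in the sources used here, nor was strandedness. The authors deposited 9 tables of FPKM values per library. The unit is read from the values, because FPKM times estimated gene length gives 1 constant sum over genes, whichever the library. Group means, called average CPM in the file headers, were also deposited as a signal per gene. The deposited p-values and q-values and the deposited log2 fold changes are the authors' own tests, whose kind is not stated.

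Gene length and reads per library were estimated from the FPKM and the deposited means. Whole reads were not recovered, so no count test was run. The main test was limma (3.58.1, under R 4.3.3), applied to log2(FPKM + 1) with 1 mean per group and without a block, to genes with a mean of at least 10 FPKM over the samples of the fit, and Benjamini-Hochberg adjustment over all genes, at 0.05. This scale understates the change of low genes. Treatment comparisons used 1 fit per tissue and tissue comparisons 1 fit of all groups. Shares were tested by exact permutation over samples. Homeologs share sequence, so reads of 40 nt can be split between copies. The glycolytic genes, the pathway and marker lists and the tests were chosen with earlier results of these data known. Of the pathway lists, the 5 called genes with the smallest adjusted p per comparison may be named. All 40 gene models matched by name a RefSeq table of assembly v10.1, used for names only. An item withheld from the text is not reported here, though it counts in the totals.

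Alternatives were other pseudocounts and filters, median-of-ratios scaling, separate libraries, a replicate block, limma's trend and robust options, leaving out each sample, and, added after the data were seen, leaving out samples with over 10% smad4.1.S reads.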

Additional observations from a re-analysis of the deposited data

Results flagged for a closer look

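Among 32 glycolytic models tested, the silk effect of the brain aldolase aldoc.L differed between blastema and stump. The interaction of the effects, blastema minus stump, was -3.79 ± 1.11 on the log2(FPKM + 1) scale (limma fit of all groups, adjusted p = 0.0468), and 6.75% of 5924 genes passed that test, a larger share than 1 of 32. The model passed the filter mainly through brain, and its blastema silk values rest on an estimated 0 to 4 reads per library. In blastema aldoc.L had 7.70, 0 and 2.62 FPKM with silk, against 44.1, 4.25 and 29.1 FPKM without a device. In stump it had 15.1, 5.79 and 7.52 FPKM with silk, against 1.99 and 5.17 FPKM without a device. The summed neuronal markers of the same blastema samples were 107, 52.0 and 36.6 FPKM with silk and 236, 73.9 and 173 FPKM without a device, and their part in the values of aldoc.L was not tested.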

How the results depend on the processing

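No called difference of a glycolytic gene changed sign under the alternatives checked gene by gene, where the gene was still tested. Calls were less stable than signs. Under settings other than leaving out a sample, 299 of these checks kept the call and 61 lost it. Leaving out 1 sample also often lost a call. For models that passed the filter mainly through 1 tissue or group, the sign was largely set by it. Leaving out samples with over 10% smad4.1.S reads was read for counts only. Counts of calls moved often. For silk in blastema (5 calls) a pseudocount of 5 gave 8, and a filter of 1 FPKM in 3 samples, no filter and median-of-ratios scaling each gave 0. For silk in stump (1 call) the pseudocount of 5 and both filters gave 0, scaling 13, separate libraries 15 and limma's trend and robust options 5. For progesterone in stump (3 calls) both filters gave 0, scaling 8, separate libraries 14, the limma options 5, and leaving out samples with over 10% smad4.1.S reads 1. For blastema against stump without a device (8 calls) the pseudocount of 5 gave 13, both filters 3, scaling 19, separate libraries 15 and leaving out the smad4.1.S samples 17. With silk (8 calls) both filters gave 3 and separate libraries 13. The smad4.1.S setting could not be fitted for silk in blastema, where it leaves no silk sample. Separate libraries counted the near-identical libraries as separate samples, which understates the spread. For scaling, counts over all genes stand with each comparison above, and for the other settings none are given. These member counts therefore show only how calls moved with the settings.

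Leaving out 1 sample gave 0 to 7 calls for silk and 0 to 1 for progesterone in blastema, 0 to 9 and 0 to 12 in stump, 0 to 9 for blastema against stump without a device, 3 to 9 with silk and 0 to 14 with progesterone, and 14 to 17 for brain against stump. Where it leaves 1 sample in a group, that sample is assumed to vary like the other groups. Counts over all genes are not given for these fits, so the ranges show only how calls moved. Restricting shares to models of at least 10 FPKM moved the aldolase share to 97.1% with progesterone and 98.7% with silk in blastema, and the hexokinase share to 3.94% in brain without a device. Within a tissue, replicate numbers gave no steady pairing between treatments: 9 of 27 same-numbered pairs correlated above 0.1 (from -0.25 to 0.26). Whether same-numbered samples of different tissues are paired was not tested, and the tissue comparisons treated them as unpaired. A replicate block was fitted on separate libraries, so near-identical ones counted separately here too. It gave 14 calls for silk and 15 for progesterone in stump. For blastema against stump it gave 15 without a device and 13 with silk. These counts were close to those of separate libraries without the block.

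Depth limits the low members: for a gene 1 kb long, a single read equalled 0.286 to 5.60 FPKM. Hence values of gck, eno4 and the short pgk1 models, and of pgam2, pfkm.L and aldoc.L in blastema with silk, rest on few reads, and a listing at 0 in a shallow library is not absence.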

Other observations

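Muscle transcripts were higher in 1 brain library than in the others. Brain silk 1 had 17.9 FPKM of eno3.L, 3.64 FPKM of pgam2.L, 6.19 FPKM of pgam2.S and 55.6 FPKM of the muscle actin acta1.L, and its muscle markers summed to 387 FPKM. In the 8 other brain libraries eno3.L was at most 1.38 FPKM and the muscle markers summed to 33.9 to 79.0 FPKM. Within the same library aldoc.L had 444 FPKM, the lowest value among brain samples.

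The summed level of the 40 glycolytic models varied within groups as well. In stump with progesterone it was 2219, 9820.03 and 4468 FPKM, and the muscle markers of the same samples summed to 4447, 28701 and 13553 FPKM. The share of the muscle class in that sum was 42.3%, 55.6% and 51.8% in these samples, against 48.9% and 44.3% in stump without a device, so it did not separate the groups there. In blastema the share was 40.6% and 44.4% with progesterone and 42.8%, 38.0% and 42.3% with silk, against 55.3%, 52.1% and 56.2% without a device, with no overlap.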
